A study of Rattus norvegicus with 9 samples.

Results

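The baseline transcriptome of the rat renal outer medulla is given here by 3 libraries, chosen by their group label alone: they are the 3 rats labelled 0.4% salt among the 9 samples of the study. Each library came from the outer medulla of 1 rat of the strain MCW SS, a Dahl salt-sensitive strain whose blood pressure rises on a salty diet, kept on a diet with 0.4% NaCl. These rats had the same surgery as the other 6 but were sampled at the point where treatment would have begun, so they received neither the 4% NaCl diet nor any oligonucleotide. The other groups, used below only to give the spread between rats a scale, took 4% NaCl for 7 days after intrarenal delivery of GapmeRs, antisense oligonucleotides that trigger cleavage of a matching RNA: HS_SCR (3 rats) received a scrambled GapmeR at 4 mg/kg and HS_DT (3 rats) received GapmeRs against Dnmt3a and Tet3 at 2 mg/kg each. The sources used here give neither the age nor the sex of the rats. The 3 baseline libraries form a single group, so nothing within it was tested: levels, orders and the spread between the rats are described with every library's value.

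The outer medulla lies between the renal cortex and the inner medulla. Its outer stripe holds the S3 segment, the last and straight part of the proximal tubule, and its inner stripe holds thick ascending limbs, thin descending limbs, collecting ducts and the bundles of the vasa recta. The thick ascending limb takes up NaCl without water, driven by a dense array of Na,K-ATPase and mitochondria in a poorly oxygenated region, and this step builds the osmotic gradient by which the kidney concentrates urine. The collecting duct holds principal cells, which reabsorb water and sodium under vasopressin and aldosterone, and intercalated cells, which secrete acid.

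The unit throughout is FPKM, sequenced fragments per kilobase of transcript, scaled by a factor for the size of each library, so levels of different genes are compared per length. The table lists 30315 loci, of which 14383 averaged 1 FPKM or more over the 3 rats (12123 with a single gene symbol, 1377 without any name, 489 with several names and 394 with only an Ensembl identifier). A mean of at least 10 FPKM was reached by 7558 loci, of at least 100 FPKM by 804 and of at least 1000 FPKM by 61, while 8426 loci were listed at 0 in all 3 libraries and 2141 were above 0 in only 1 or 2 of them. Values of FPKM do not give the number of reads. The steps between the lowest values put the scaling factors of replicates 2 and 3 at 0.910 and 1.01 times that of replicate 1. Such ratios equal relative read depth only if each library was scaled by its mapped fragments, which was not checked. All 3 libraries carry the same lane number in their labels. Replicate 2 stood apart from the other rats in genes of the proximal tubule, and the values that rest on it are given with and without it. Each locus is quoted in the order replicate 1, replicate 2, replicate 3, and coordinates are those of the rn5 build.

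RNA encoded by the mitochondrial genome, which carries subunits of the respiratory chain, took 31.9%, 30.6% and 27.3% of the summed FPKM (29.9% ± 2.42, SD, n = 3). Replicate 3 had the lowest share. The highest entry was a joint locus of MT-ATP6, MT-ATP8 and MT-CO3, at 91608, 84471 and 70525 FPKM, which held 37.4% of the mitochondrial sum. MT-CO2 reached 27804, 24839 and 23605 FPKM and COI 28794, 25801 and 21041 FPKM; both encode catalytic subunits of cytochrome c oxidase. The MT-ND4 and MT-ND4L locus stood at 20127, 19144 and 15591 FPKM, CYTB at 16576, 15667 and 12487, ND1 at 12115, 11727 and 9139, MT-ND2 at 10831, 10387 and 8118 and ND3 at 8975, 8086 and 7576. MT-ND6 (4222, 4227 and 3359 FPKM) and MT-ND5 (4095, 3925 and 2935 FPKM) were the lowest of the named complex I subunits; they are listed with the same coordinates and lie on opposite strands in the mitochondrial genome, so their reads cannot be told apart unless counting used strand, on which the labels are silent. COI likewise shares its coordinates with a locus that has only an Ensembl identifier (15681, 18404 and 10169 FPKM). The 2 loci at the ribosomal RNA positions were low, at 1024, 939 and 837 and at 352, 323 and 268 FPKM. Of the 33 mitochondrial loci, 19, none wider than 137 bases, were listed at 0 in every library, and a further short one, with only an Ensembl identifier, was listed at 3485, 0 and 1129.8 FPKM. Short mitochondrial loci hold tRNA genes, which every cell uses, so an exact 0 in this table need not mean that a gene is silent. Why these loci were at 0 was not tested.

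The 10 highest loci held 31.0%, 30.1% and 26.9% of the summed FPKM and the 100 highest held 48.5%, 46.2% and 44.2% (46.3% ± 2.14, SD, n = 3). Without the mitochondrial loci, the 100 highest held 26.3%, 24.1% and 25.2%. The lower concentration of replicate 3 was thus seen with the mitochondrial loci and not without them, where replicate 2 was lowest.

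**Figure D1:**
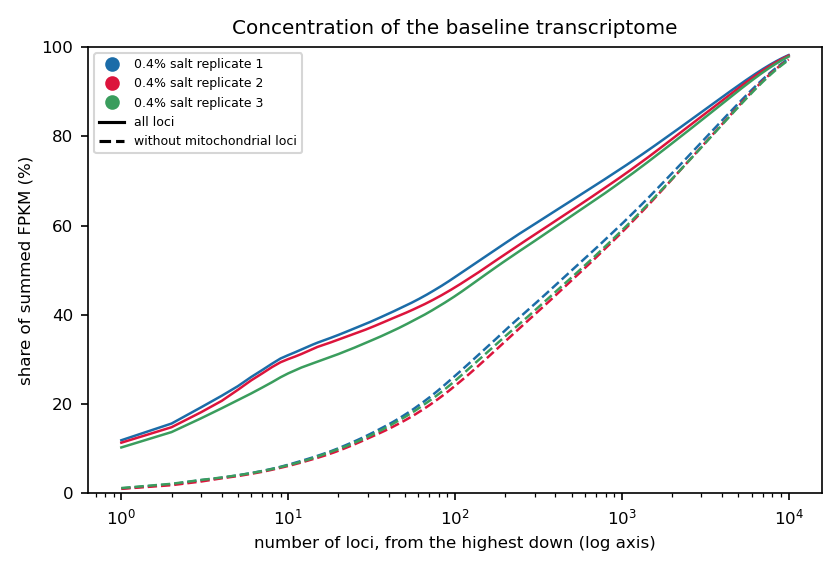
Cumulative share of the summed FPKM (vertical axis, %) held by the highest loci of each baseline library, counted from the highest down (horizontal log axis), with all loci (solid) and without mitochondrially encoded loci (dashed). With all loci the 100 highest hold 48.5%, 46.2% and 44.2% in replicates 1, 2 and 3, and without the mitochondrial loci 26.3%, 24.1% and 25.2%.

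Among nuclear genes the highest was Spp1 (osteopontin, a secreted phosphoprotein of tubular cells), at 4798, 5249 and 5965 FPKM (chromosome 14, 6653093 to 6658953). The next places were filled by cytoskeletal and housekeeping genes, genes of ribosomal proteins, and genes of kidney epithelium. Among the first of these, Tmsb4x, a thymosin that binds actin monomers, was at 5769, 4233 and 4726 FPKM, Tmsb10 at 2075, 1696 and 2289, Actb (beta-actin) at 1690.3, 1495 and 1702, Eef1a1 (an elongation factor) at 2496, 2259 and 2354, Tpt1 at 2327, 1989.7 and 2021, UBB (ubiquitin) at 1751, 1900.5 and 1891, B2m (the light chain of MHC class I) at 1858, 1619 and 1725 and Fth1 (ferritin heavy chain) at 2817, 2536 and 2519. The ribosomal protein genes among the 20 highest were Rpl41 (4942, 4209 and 4263 FPKM), RPL37A (2525, 2087 and 2311), Rps29 (2387, 2044 and 2156) and Rps27 (1731, 1396 and 1417); all have many near-identical pseudogenes, which makes their levels uncertain. The rest of the 20 included Igfbp7, a secreted binding protein of vessels and stroma, at 2869, 2376 and 2764 FPKM, Mt2A, a metal-binding metallothionein, at 1397, 1606 and 1949, and genes of tubular cells. Among the tubular genes were the Na,K-ATPase subunit Atp1b1 (2191, 2370.3 and 2130.3 FPKM), the pump regulator FXYD2 (1953, 1623 and 1342), Umod and Kap. Umod (uromodulin, the main protein of normal urine, made in the thick ascending limb) was at 2608, 2593 and 1439.9 FPKM, and Kap (kidney androgen-regulated protein, of the proximal tubule) at 1759.8, 3747 and 1884 FPKM. These last genes already show how the rats differed: Umod was lowest in replicate 3 and Kap was 2.13 times as high in replicate 2 as in replicate 1.

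The label of the tissue was checked against 21 lists of cell type markers with 173 entries, of which 165 could be measured as a locus of their own and 136 of these had a mean of at least 1 FPKM. Among the others, Lrp2, Wnk4, Acta2 and Cyp11b1 matched no locus, and Vwf, Hbb and Krt5 lay in loci of several names. The median of the members' mean FPKM was highest in the fibroblast (186 FPKM), thick ascending limb (83.9), macrophage (73.2), intercalated cell (42.5), thin limb (41.1), proximal tubule (35.5) and principal cell (31.8) lists. It was low in the lists for the distal convoluted tubule (2.63 FPKM), the cortical S1 and S2 segments (0.806), the macula densa (0.647) and the adrenal cortex (0.492). Between these were the outer stripe S3 list (18.7 FPKM) and the podocyte list of the cortex (14.5 FPKM), so not every list of the cortex was near 0. Such medians rest on the genes chosen and are not cell shares. The lists were chosen with earlier results of these data known. Counts of members set below against shares of all loci averaging 1 FPKM or more therefore only describe the lists. In bulk tissue, fewer cells of a type and less RNA per cell cannot be told apart.

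**Figure D2:**
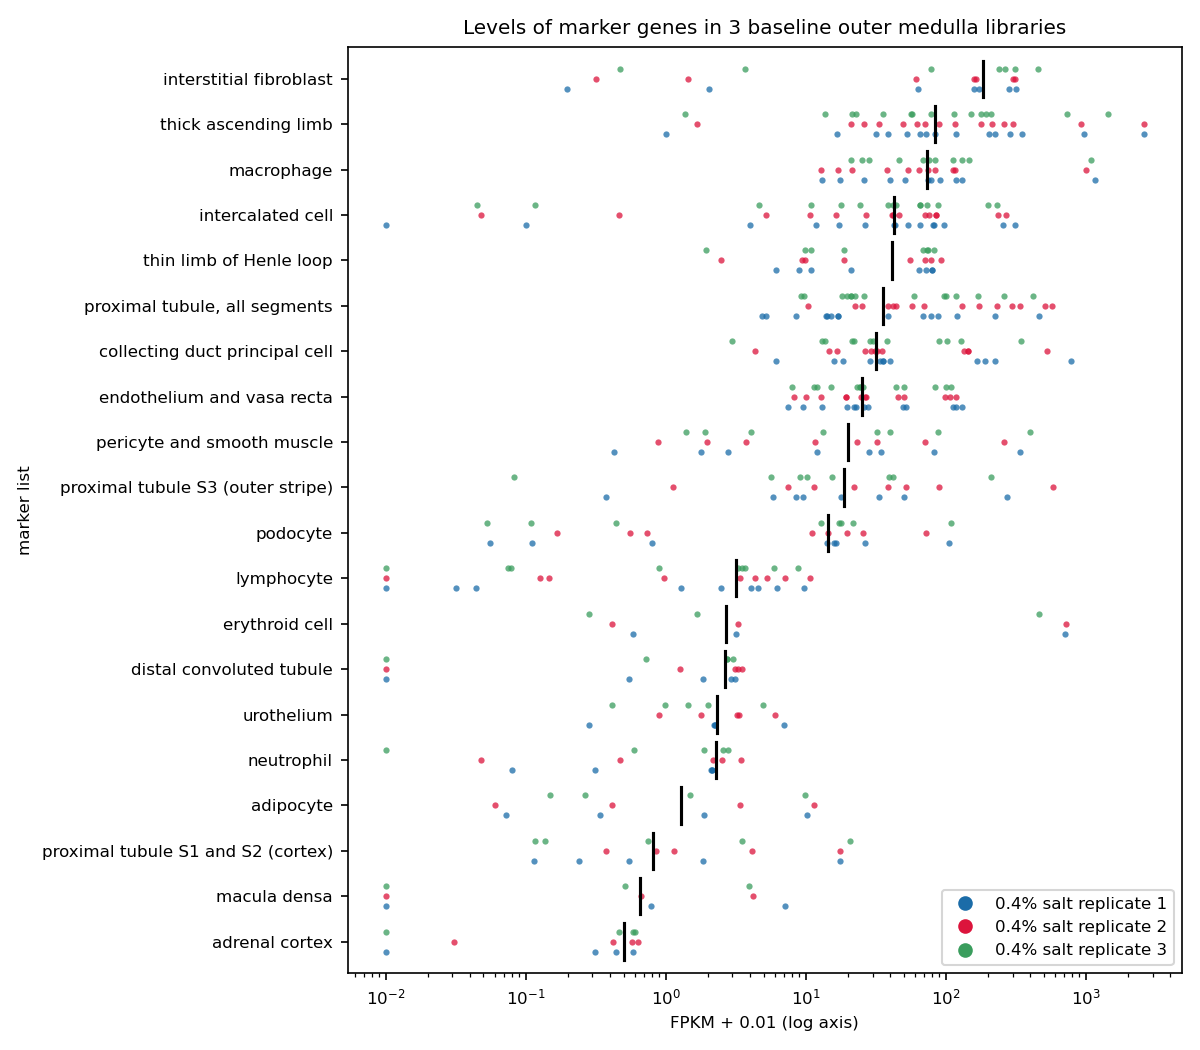
FPKM of each marker gene in the 3 baseline libraries (horizontal log axis, 0.01 added to every value so that zeros show), by marker list (vertical axis; 1 list is not drawn), with a black line at the median of the members' means. The thick ascending limb list has its median at 83.9 FPKM, while the cortical S1 and S2 list has it at 0.806 FPKM.

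The thick ascending limb list was led by Umod, followed by Slc12a1 (the Na-K-2Cl cotransporter NKCC2, the target of loop diuretics) at 975, 926 and 739.8 FPKM, Ppp1r1a (a protein phosphatase inhibitor) at 349, 305 and 210.4, Kcnj1 (ROMK, which returns potassium to the lumen) at 286, 259.9 and 195 and Cldn10 (a claudin of cation-selective tight junctions) at 226, 212 and 178. Each of these 5 was highest in replicate 1 and lowest in replicate 3. The summed FPKM of the 15 members was 5128, 4945 and 3318. Of the 15, 14 were lowest in replicate 3, against 38.5% of all expressed loci (those averaging 1 FPKM or more), and 11 were highest in replicate 1, against 31.6% of such loci. No member differed more than 2-fold between rats. After rescaling each library to the same summed FPKM the list stayed lowest in replicate 3 (12 of 15 members, against 14.2% of expressed loci) but its score was highest in replicate 2, as was Umod, so the order of replicates 1 and 2 depends on the scaling. Umod and Slc12a1 did not keep a fixed proportion: their ratio was 2.68, 2.8 and 1.95, lowest in replicate 3, whereas Slc12a1 over Kcnj1 was 3.4, 3.56 and 3.79.

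The stretch around the annotated start of Umod, the highest nuclear gene of this segment, is shown because the gene leads the list that separates replicate 3 from the other rats. It runs from 250 bases before the start to 50 bases after it on the minus strand of chromosome 1 (RefSeq, GRCr8, chr1:183260967-183261266), with the letters TATAAA in capitals, which lie 219 and 173 bases before the start.
Umod: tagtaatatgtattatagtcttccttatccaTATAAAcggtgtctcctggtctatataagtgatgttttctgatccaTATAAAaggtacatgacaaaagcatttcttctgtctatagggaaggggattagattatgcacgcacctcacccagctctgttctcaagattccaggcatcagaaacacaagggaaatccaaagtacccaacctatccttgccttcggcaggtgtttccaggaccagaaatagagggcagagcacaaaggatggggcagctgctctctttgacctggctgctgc
TATAAA, searched on both strands, was present in 14.2% of 33469 RefSeq windows of this length and in the windows of 2 of 12 matched thick ascending limb genes, Kcnj1 and Umod. It is not particular to this list: 4 of 14 proximal tubule genes with a window held it (Aqp1, Miox, Slc13a1 and Slc34a1). In the Miox and Slc34a1 windows printed below it is left in small letters. The match is a description of letters, and the RefSeq start need not be the one used in these rats.

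The Na,K-ATPase, which powers sodium uptake from the basolateral side, had 1 leading beta subunit. Atp1b1 held 93% ± 0.771 (SD, n = 3) of the beta subunit FPKM and Atp1b3 held 6.53% ± 0.714. Fxyd2, the gamma subunit that lowers the affinity of the pump for sodium, held 84.9% ± 1.28 of the measured FXYD genes. Fxyd4, its relative in the collecting duct, held 7.72% ± 1.63.

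The other transporters of the thick ascending limb also had 1 or a few leading members. Slc12a1 held 94.2% ± 0.792 of the measured cation-chloride cotransporters, and Slc12a3, the thiazide-sensitive cotransporter of the distal convoluted tubule, was at only 1.84, 3.3 and 2.74 FPKM. Among inward rectifier potassium channels Kcnj1 held 62.1% ± 3.57 and Kcnj16, a basolateral channel subunit, 25.9% ± 1.89. The claudins were more evenly divided, with Cldn10 at 27.6% ± 1.99, Cldn19 at 15.7% ± 0.654, Cldn8 at 12.7% ± 0.768, Cldn4 at 10.9% ± 0.823 and Cldn16 at 8.32% ± 0.162. Cldn16 and Cldn19 form the pore for calcium and magnesium, and Cldn19 was even across the rats at 118, 116 and 115 FPKM. Ptger3, the EP3 prostaglandin receptor that restrains vasopressin signalling, held 73.4% ± 2.95 of the prostaglandin E receptors. Adcy6, the adenylyl cyclase downstream of vasopressin, held 55.1% ± 2.05 of the adenylyl cyclases.

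The proximal tubule varied most between the rats. Among the highest of its 15 measured markers were Aqp1 (the water channel of the proximal tubule and thin descending limb) at 465, 514 and 421 FPKM, Gatm (the first enzyme of creatine synthesis) at 120.3, 338 and 169, Miox (inositol oxygenase) at 88.2, 296 and 119 and Slc34a1 (the phosphate cotransporter NaPi-IIa) at 68.6, 231 and 100.1. All 15 were highest in replicate 2, against 36.7% of expressed loci, and 14 were lowest in replicate 1, against 31.2%. More than 2-fold between the highest and the lowest rat on the FPKM + 1 scale was reached by 13 of the 15, against 3.02% of expressed loci (434 of 14383), and the median fold over the members was 2.94. The list was chosen with earlier results of these data known, so these shares describe it and test nothing. The 2 members under 2-fold were Aqp1, which is also made in the thin descending limb, and Slc13a1, a sulfate transporter, at 5.18, 10.4 and 9.23 FPKM. The summed FPKM was 1179, 2570.2 and 1376, and the list score, the mean log2(FPKM + 1) of the members, was 5.10, 6.54 and 5.59, a spread of 1.45 log2 units. All 15 were also highest in replicate 2 after each of the 3 rescalings tried, and without replicate 2 the spread was 0.50 log2 units.

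Most markers of the S3 segment were also highest in replicate 2. Slc7a13, an S3 amino acid transporter, was at 275, 582 and 209 FPKM, Acy3 (an aminoacylase) at 33.5, 89.3 and 42.2, Slc22a7 (the organic anion transporter OAT2) at 17.9, 38.5 and 15.3 and Slc5a8 (a monocarboxylate transporter) at 8.58, 22.1 and 10.1. Of 7 members with a mean of at least 1 FPKM, 6 were highest in replicate 2, against 36.7% of expressed loci. The sum over the list was 401, 803 and 331. Slc2a1 (the glucose transporter GLUT1), which is widely made in the kidney, was at 50.4, 51.7 and 39.6 FPKM. As deposited, replicate 1 was lowest for the general proximal list and replicate 3 for the S3 list; after rescaling to the same summed FPKM replicate 1 was lowest for both.

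Markers of the cortical S1 and S2 segments were low. Slc5a2 (SGLT2, the bulk glucose cotransporter of the early proximal tubule) was at 0.538, 1.14 and 0.738 FPKM, Slc6a19 (a neutral amino acid transporter) at 0.229, 0.844 and 0.106, Slc34a3 at 0.104, 0.366 and 0.128 and Slc2a2 (GLUT2) at 1.85, 4.09 and 3.5, all 4 highest in replicate 2. Among expressed loci 36.7% were highest in replicate 2, and most of these 4 genes averaged under 1 FPKM. Slc7a7, an amino acid transporter also found in other cells, was at 17.5, 17.7 and 20.7 FPKM. Slc5a1 (SGLT1, the glucose cotransporter of S3) was at 5.79, 11.5 and 5.66 FPKM and held 60.3% ± 2.26 of the measured SLC5 genes, so the S3 form stood above the cortical form, by a ratio of 10.8, 10.1 and 7.67. Another cortical marker, Slc26a4 (pendrin, of cortical intercalated cells), named after its values were seen, was also highest in replicate 2, at the very low levels of 0.0908, 0.453 and 0.107 FPKM. It is of the intercalated list, where 9 of the 13 expressed members were highest in replicate 1. Other cortical markers were mixed. The 3 expressed distal convoluted tubule genes were highest in replicate 2. The macula densa genes Ptgs2 (7.06, 4.21 and 3.93 FPKM) and Nos1 (0.782, 0.657 and 0.502 FPKM) were highest in replicate 1. These values stand beside the proximal excess of replicate 2, and the part played in it by the place where the tissue was cut was not tested.

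The most uneven genes were mostly highest in replicate 2. Of the 20 single-symbol genes with a mean of at least 10 FPKM and the widest range, 18 were highest in replicate 2 and 15 lowest in replicate 1. Among expressed loci 36.7% were highest in replicate 2 and 31.2% lowest in replicate 1. Of the 20 genes, 7 were members of the proximal lists, which held 20 (0.292%) of the 6838 genes eligible by their mean. These 7 were already counted in the general proximal list above, so they are no further support. That list was also chosen with earlier results of these data known. Pck1 (the rate-limiting enzyme of gluconeogenesis) was at 15.2, 70.3 and 21 FPKM, 4.62 times as high in replicate 2 as in replicate 1, and Fbp1 (fructose-bisphosphatase, of the same pathway) was at 38.9, 131 and 59.5. Transporters among the 20 were Slc22a6 (the organic anion transporter OAT1) at 14.3, 43.8 and 22.7 FPKM, Slc22a8 (OAT3) at 4.87, 22.6 and 9.68, Slc13a3 (a dicarboxylate transporter) at 17, 57.4 and 26, Naglt1 (a sodium-dependent glucose transporter) at 3.8, 17.8 and 9.41 and Kcnj15 at 6.07, 19.6 and 10.1. The replicate 2 value was the highest for each of them. Enzymes of lipid and drug metabolism were Cyp4a8 at 60.6, 207 and 76 FPKM, Cyp2c23 (an arachidonic acid epoxygenase) at 47.1, 145 and 79.4, Acsm2a at 22.4, 69.4 and 30.6, Gsta2 at 6.14, 20.2 and 6.17, Gclc (of glutathione synthesis) at 244, 569 and 192, Ces1d at 15.8, 34.8 and 11.2 and Akr1b7 at 16.7, 28.5 and 8.4. Gclc, Ces1d and Akr1b7 were lowest in replicate 3 and the other 4 in replicate 1. Spink1, a protease inhibitor, was at 8.2, 35.1 and 26.1 FPKM. Dnase1, a secreted nuclease, went the other way at 112, 73.2 and 35.4 FPKM, highest in replicate 1 and lowest in replicate 3. The remaining pair of the 20 may not be comparable with the rest: Rplp2 (467, 20.9 and 25.2 FPKM) is a ribosomal protein gene with near-identical copies, and Mir142 (0, 80.5 and 37.4 FPKM) is a locus of microRNA size.

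Miox and Slc34a1, a pair picked with their values known, kept a near-constant proportion. Miox over Slc34a1 was 1.29, 1.28 and 1.19, a coefficient of variation (SD over mean) of 4.23%, while each gene alone differed several-fold between replicates 1 and 2 (Miox by 3.35-fold and Slc34a1 by 3.37-fold). The ratio of Slc34a1 to Slc34a2, a phosphate cotransporter of other epithelia that was highest in replicate 3 (59.7, 73.8 and 101 FPKM), was 1.15, 3.13 and 0.991, so which of the 2 led the family changed with the rat. The 3 proximal promoters below are of genes that were high and low in the same rats and that hold the letters GTTAAT on either strand. Other proximal genes with the same order of rats, such as Fbp1, Slc13a3, Slc22a6 and Gatm, are not among the genes found with a match. Each is the window from 250 bases before to 50 bases after the RefSeq start (GRCr8): Miox on the plus strand (chr7:122284410-122284709), Slc34a1 on the minus strand (chr17:9238934-9239233) and Pck1 on the plus strand (chr3:182348322-182348621). Capitals mark the letters GTTAAT or their reverse complement.
Miox: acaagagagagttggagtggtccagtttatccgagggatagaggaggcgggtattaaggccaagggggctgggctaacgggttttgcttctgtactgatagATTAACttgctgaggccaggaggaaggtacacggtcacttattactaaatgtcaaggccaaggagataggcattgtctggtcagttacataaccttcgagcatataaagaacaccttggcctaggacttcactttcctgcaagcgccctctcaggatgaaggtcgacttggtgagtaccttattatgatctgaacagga
Slc34a1: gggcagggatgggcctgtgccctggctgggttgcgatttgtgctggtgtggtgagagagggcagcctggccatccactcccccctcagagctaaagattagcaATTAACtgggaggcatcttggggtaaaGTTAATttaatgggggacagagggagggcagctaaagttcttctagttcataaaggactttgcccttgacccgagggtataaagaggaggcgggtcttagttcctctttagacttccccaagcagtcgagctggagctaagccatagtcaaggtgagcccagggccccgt
Pck1: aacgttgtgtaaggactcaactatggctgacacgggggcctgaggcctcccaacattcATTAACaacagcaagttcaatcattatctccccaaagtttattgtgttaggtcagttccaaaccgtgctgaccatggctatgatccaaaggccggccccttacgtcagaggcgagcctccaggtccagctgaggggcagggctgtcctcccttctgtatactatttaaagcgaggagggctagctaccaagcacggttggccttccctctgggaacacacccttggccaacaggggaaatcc
The match lies 149 bases before the start in Miox, 147 and 120 bases before it in Slc34a1 and 192 bases before it in Pck1. GTTAAT on either strand was found in 7.45% of all 33469 windows and in 5 of the 14 proximal tubule genes with a window (Hnf4a, Miox, Pck1, Slc22a8 and Slc34a1). It was in 1 of 5 genes of the S1 and S2 list, in 0 of 6 of the S3 list and in 2 of 12 of the thick ascending limb list. The motif was chosen after matches had been seen, and a match is not evidence of binding. No match to either motif overlaps a match to the other in the windows shown.

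Principal cell genes followed another order. Aqp2, the vasopressin-regulated water channel, was at 779, 527 and 342 FPKM, Fxyd4 at 223, 134 and 102, Hsd11b2 (which inactivates glucocorticoids and so keeps the mineralocorticoid receptor for aldosterone) at 167, 144 and 128, Aqp3 (the basolateral water channel) at 189.8, 144 and 88.9 and Krt19 at 35.4, 34.8 and 38.2. Of the 12 members, 10 were highest in replicate 1, against 31.6% of expressed loci, and 11 lowest in replicate 3, against 38.5%. The sum was 1573, 1140.0 and 832. The exceptions to the first count were Krt19, highest in replicate 3, and Scnn1a, highest in replicate 2. After rescaling to the same summed FPKM, 10 were highest in replicate 1, against 13.5% of expressed loci, and 8 were lowest in replicate 3, against 14.2%. Aqp2 over Aqp3 was 4.1, 3.66 and 3.85 (coefficient of variation 5.78%) although Aqp2 itself was 2.27 times as high in replicate 1 as in replicate 3.

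The window around the start of Aqp2 is shown for comparison with the proximal genes. It lies on the plus strand (GRCr8, chr7:132590036-132590335) and holds 1 match to GTTAAT, in capitals, 204 bases before the start.
Aqp2: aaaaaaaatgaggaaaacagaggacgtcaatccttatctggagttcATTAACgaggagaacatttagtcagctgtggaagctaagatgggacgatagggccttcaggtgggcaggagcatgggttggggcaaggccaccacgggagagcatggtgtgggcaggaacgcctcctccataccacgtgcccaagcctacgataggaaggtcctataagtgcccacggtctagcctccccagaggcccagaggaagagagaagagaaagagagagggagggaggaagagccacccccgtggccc
Aqp2 was the only 1 of 8 principal cell genes with a window to hold it.

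The receptor for vasopressin on these cells, Avpr2, was at 35.4, 29.2 and 22.1 FPKM and held 87.4% ± 2.32 of the vasopressin receptors, with Avpr1a at 4.43, 3.76 and 3.97 FPKM and Avpr1b listed at 0 in all 3 libraries. The subunits of the epithelial sodium channel were more even than the water channels: Scnn1a was at 28.8, 31.1 and 28.8 FPKM, Scnn1g at 18.5, 16.6 and 13.1 and Scnn1b at 15.8, 14.7 and 13.7. Scnn1a led in every library and held 49.1% ± 3.15, while the ranges of Scnn1g and Scnn1b overlapped. Among the aquaporins, Aqp2 held 36.3% ± 6.6 and Aqp1 32.5% ± 5.91; Aqp2 led in replicates 1 and 2 and Aqp1 in replicate 3, and their ratio was 1.67, 1.03 and 0.813. Aqp12a was listed at 0 in all libraries. The corticosteroid receptors kept a near-constant ratio: Nr3c1 (the glucocorticoid receptor, 22.1, 20.6 and 19.4 FPKM) stood above Nr3c2 (the mineralocorticoid receptor, 12.4, 11.6 and 10.2 FPKM) by 1.79, 1.77 and 1.9.

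Osmolyte genes, which let medullary cells live in concentrated fluid, were not equally spread. Akr1b1 (aldose reductase, which makes sorbitol) was at 141, 67.9 and 66.6 FPKM, far higher in replicate 1 than in the other rats. Nfat5, the transcription factor of the response to tonicity, was at 57.7, 51.6 and 54.2 FPKM, Slc6a6 (the taurine transporter) at 41.1, 48.2 and 43.1 and Slc6a12 (the betaine transporter) at 20.6, 17.6 and 11.7. Sord (sorbitol dehydrogenase, abundant in the proximal tubule) was highest in replicate 2, at 20.6, 39.5 and 25.7 FPKM.

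Intercalated cell genes differed little. Aqp6 (an intracellular aquaporin of acid-secreting cells) was at 310.3, 269 and 233 FPKM, Tmem213 at 256, 237 and 202, Slc4a1 (the anion exchanger AE1) at 96.6, 85.6 and 88.6, Atp6v1g3 (a proton pump subunit) at 81.8, 71 and 73.4 and Rhcg (an ammonia channel) at 80.5, 76.1 and 65.9. The spread of the list score was 0.11 log2 units, and no member was 2-fold apart on the FPKM + 1 scale. Slc4a1 is the anion exchanger of acid-secreting intercalated cells; it held 46.3% ± 3.65 of the measured bicarbonate transporters, and Slc26a4, of base-secreting cells, was near 0. The subunits shared by all cells and those of intercalated cells could be set side by side: Atp6v1b2 held 62.7% ± 2.94 and Atp6v1b1 37.3% ± 2.94 of the B subunits, and Atp6v1g1 held 70.2% ± 0.725 and Atp6v1g3 28.8% ± 0.784 of the G subunits. Of the a subunits Atp6v0a4 held 59.8% ± 5.34 and Atp6v0a1 21.8% ± 2.95. Car2, the cytosolic carbonic anhydrase, held 53.9% ± 1.82 of the carbonic anhydrases at 339, 357 and 275 FPKM.

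Most thin limb markers were even, with Cldn4 at 79.7, 78.9 and 82.7 FPKM, Fst (follistatin) at 71.9, 92 and 74.4, Slc14a2 (urea transporter A) at 64, 55.2 and 68.8 and Bst1 at 21, 18.8 and 18.9. The exception, Sptssb, named after its value was seen, was at 6.17, 2.46 and 1.92 FPKM. The sum over the list was 343, 338 and 341. Slc14a2 and Slc14a1 (urea transporter B, of the descending vasa recta and red cells) split their sum alike in the 3 rats, Slc14a2 holding 73.8, 73.9 and 73.7% (73.8% ± 0.10, SD, n = 3). Cldn4 is also made in other segments. Distal convoluted tubule genes were low, with Trpm6 (a magnesium channel) at 3.12, 3.51 and 3.01 FPKM, Klhl3 at 2.92, 3.1 and 2.75, Calb1 at 0.535, 1.26 and 0.714 and Pvalb listed at 0 in all libraries. Of the macula densa list, Ptgs2 (cyclooxygenase 2) was at 7.06, 4.21 and 3.93 FPKM, Nos1 at 0.782, 0.657 and 0.502, and Pappa2 was listed at 0.

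Most genes of fibroblasts, pericytes and macrophages were highest in replicate 3. In the fibroblast list Col3a1 was at 319, 302 and 454 FPKM, Dcn (decorin) at 283, 313 and 310.3, Col1a1 at 172, 166 and 265, Col1a2 at 159.5, 159.9 and 239 and Pdgfra at 63.9, 61.7 and 78.5. Of 6 members with a mean of at least 1 FPKM, 5 were highest in replicate 3, against 31.7% of expressed loci, and the sums were 1000.2, 1004 and 1349.7. The exception was Dcn, highest in replicate 2, and replicates 1 and 2 were otherwise close. In the pericyte and smooth muscle list Tagln was at 339, 259 and 402 FPKM, Rgs5 at 81.8, 70.8 and 88.5, Pdgfrb at 34.8, 32.2 and 39.8, Des (desmin) at 28.4, 23.4 and 32.5 and Notch3 at 12, 11.5 and 13.3, and 6 of 7 were highest in replicate 3 (Cspg4 in replicate 2). In the macrophage list Lyz2 was at 1169, 1006 and 1097 FPKM, Tyrobp at 131, 117 and 132, the complement gene C1qc at 118, 113 and 147, C1qa at 91.3, 83.3 and 113 and Csf1r at 75.3, 74.1 and 84.1; 9 of 11 were highest in replicate 3 (Lyz2 and Aif1 in replicate 1) and 10 lowest in replicate 2, against 30.4% of expressed loci. None of these stromal or immune members was 2-fold apart on the FPKM + 1 scale. Without the added 1 FPKM the low fibroblast gene Postn, at 2.02, 1.42 and 3.66 FPKM, was 2.57-fold apart. All 3 lists were highest in replicate 3 under each rescaling as well, where the share of expressed loci highest in replicate 3 was 35.3% (median ratio), 43.5% (same sum without mitochondrial genes) and 59.5% (same sum). Replicate 3 thus had the lowest sums of the thick ascending limb and principal cell lists and the highest of the fibroblast, pericyte and macrophage lists.

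Among collagen IV chains, which form basement membranes, Col4a2 (292, 276 and 382 FPKM) and Col4a1 (273, 266 and 345 FPKM) were both highest in replicate 3 and held a near-constant ratio of 1.07, 1.04 and 1.11; Col4a4, of the specialised network, was lowest there at 64.1, 59.3 and 47.1 FPKM. Col3a1 over Col1a1 was 1.85, 1.82 and 1.71. Endothelial genes differed less: Plvap (of fenestrated endothelium) was at 130.2, 118 and 100.5 FPKM, Eng at 117, 106 and 109, Emcn at 113, 99.2 and 83.8, Pecam1 at 52.1, 49.96 and 50.2 and Esam at 49.3, 45.6 and 44, with a list score spread of 0.10 log2 units. Nos3, the endothelial nitric oxide synthase, held 88% ± 2.01 of the 3 synthases at 4.78, 5.04 and 4.97 FPKM, and Nos2, the inducible form, was at 0, 0.0196 and 0.0535.

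Genes of other cell types were mostly low, except haemoglobin. Lymphocyte genes reached 9.75, 10.8 and 8.73 FPKM (Cd3g) and 6.2, 7.11 and 5.9 FPKM (Cd3e), with Cd79a, of B cells, listed at 0 in all libraries, and neutrophil S100a8 was at 2.15, 3.47 and 1.87 and S100a9 at 2.13, 2.51 and 2.77 FPKM. Hba1, of red cells, was at 708, 723 and 463 FPKM, lowest in replicate 3. The urothelial uroplakin Upk1a was at 7.03, 6.04 and 4.93 FPKM and the fat cell gene Adipoq at 10.1, 11.5 and 9.88 FPKM. The rest of the fat cell list was lower, with means of 2.25 FPKM (Cidec), 0.329 (Plin1) and 0.0839 (Lep). The podocyte list was led by genes that other cells also make, Cdkn1c at 106, 72.5 and 109 FPKM and Podxl (of endothelium too) at 26.5, 25.5 and 21.6, while the defining slit diaphragm gene Nphs1, named after its value was seen, was at 0.0452, 0.157 and 0.0426 FPKM.

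**Figure D3:**
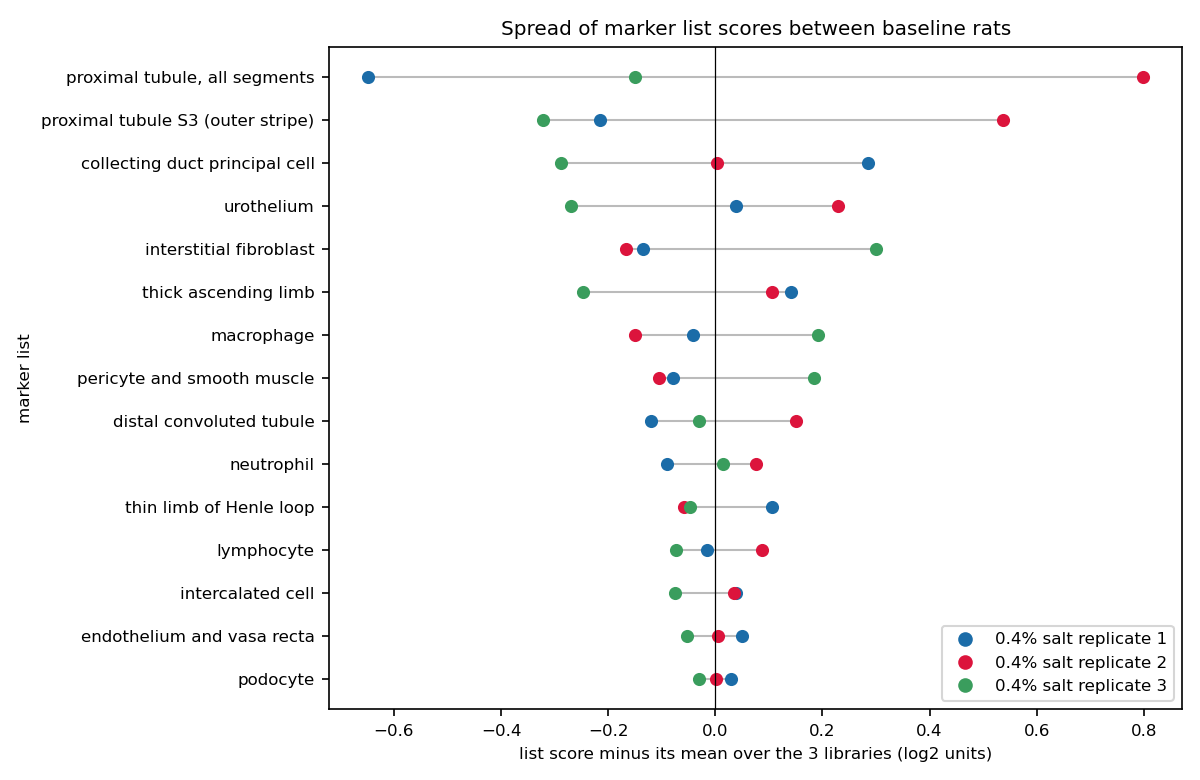
Score of each marker list (mean log2(FPKM + 1) of its members) in the 3 baseline libraries, as the difference from the list's mean over the libraries in log2 units (horizontal axis), for the 15 lists with at least 3 members at a mean of 1 FPKM or more. The general proximal tubule list spans 1.45 log2 units with replicate 2 highest, the principal cell list 0.57 with replicate 1 highest, and the fibroblast list 0.47 with replicate 3 highest.

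Across the expressed loci the 3 rats were close to each other. The median coefficient of variation was 8.29%, and 434 of 14383 loci (3.02%) were more than 2-fold apart. Of 245 such loci with a single gene symbol, 203 were highest in replicate 2 (148 of these lowest in replicate 1 and 55 lowest in replicate 3), 27 in replicate 1 and 15 in replicate 3. The rate was 2.02% among loci with a single symbol, 9.80% among loci without a name and 10.4% among loci with only an Ensembl identifier. Between pairs of rats, 250 loci were more than 2-fold higher in replicate 2 than in replicate 1 and 54 lower, whereas 55 were higher and 58 lower in replicate 3 than in replicate 1. Without replicate 2 the number of loci 2-fold apart fell to 122, without replicate 1 it was 253 and without replicate 3 it was 311.

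**Figure D4:**
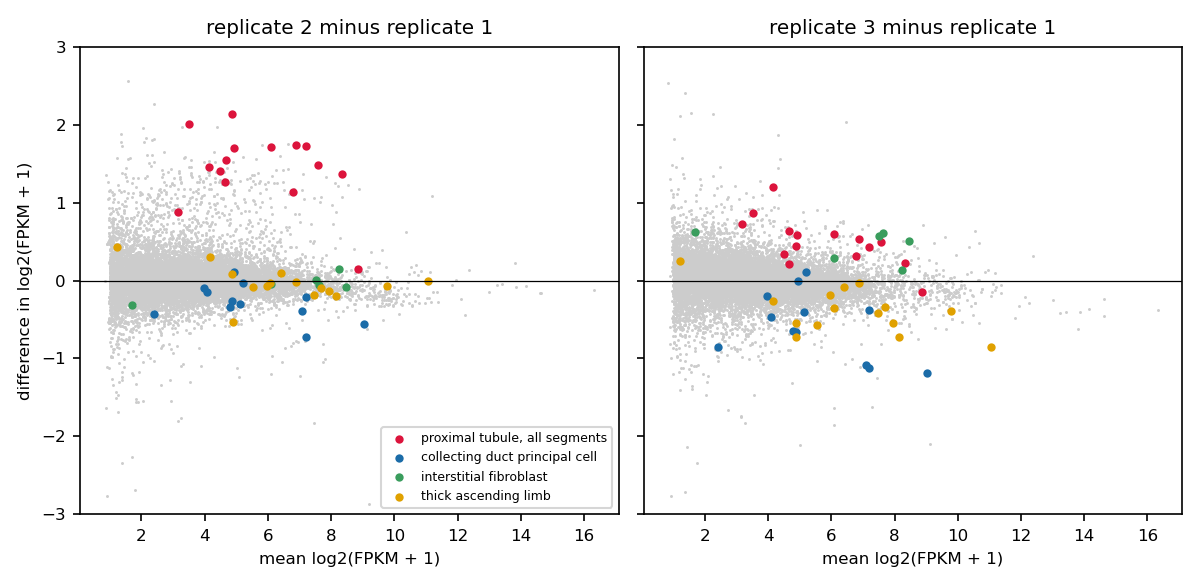
Difference in log2(FPKM + 1) of replicate 2 (left) and replicate 3 (right) from replicate 1 (vertical axis) against the mean level (horizontal axis, log2(FPKM + 1)) for expressed loci, in grey, with 4 marker lists in colour; 32 loci lie beyond 3 log2 units and are not drawn. Proximal tubule markers (red) stand above 0 on the left, and principal cell markers (blue) lie mostly below 0 in both panels.

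The same counts within the other groups give this spread a scale. Among the 3 HS_SCR rats, 1764 of 14208 loci (12.4%) were more than 2-fold apart and the median coefficient of variation was 17.9%; among the 3 HS_DT rats it was 537 of 14335 loci (3.75%) and 9.02%. The proximal tubule score was the most uneven score within baseline, and it was uneven in the treated groups too, at 2.51, 4.28 and 3.52 in HS_SCR and 3.81, 4.10 and 6.27 in HS_DT. The rat numbers in the labels are consecutive within baseline but not within HS_SCR or within HS_DT. The groups may therefore not be alike in other ways that add to their spread. The differences in spread between groups were not tested.

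The most even genes were widely expressed ones. Among single-symbol genes with a mean of at least 100 FPKM, the smallest range was that of Pnp (purine nucleoside phosphorylase), at 101.2, 101.3 and 101.1 FPKM, followed by Myl12b (a myosin light chain) at 285, 286 and 286, Rab5c (of endosomes) at 116, 115 and 116, Ostf1 at 111, 109 and 109.8, Ctnnb1 (beta-catenin) at 173, 175 and 173, Nucb1 at 152, 149.6 and 151, Raly at 127, 124 and 126, Ncl (nucleolin) at 134, 136 and 134, Ran at 147, 144 and 146 and Cct5 at 122, 122 and 119. Actb and B2m, often used as references, ranged more widely (values above).

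The ranking of paralogs was examined in 60 gene families with 344 entries, of which 324 could be measured as a locus of their own. The highest member was the same gene in all 3 rats in 56 families, and in 9 families its range overlapped that of the next member. The leading gene held 63.0% of the family's summed FPKM at the median over families; it held at least 90% in 12 families, at least 50% in 44 and less than 50% in 16. Shares are of the listed and measured members only. They do not change with the scaling of a library, since every member is scaled alike.

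**Figure D5:**
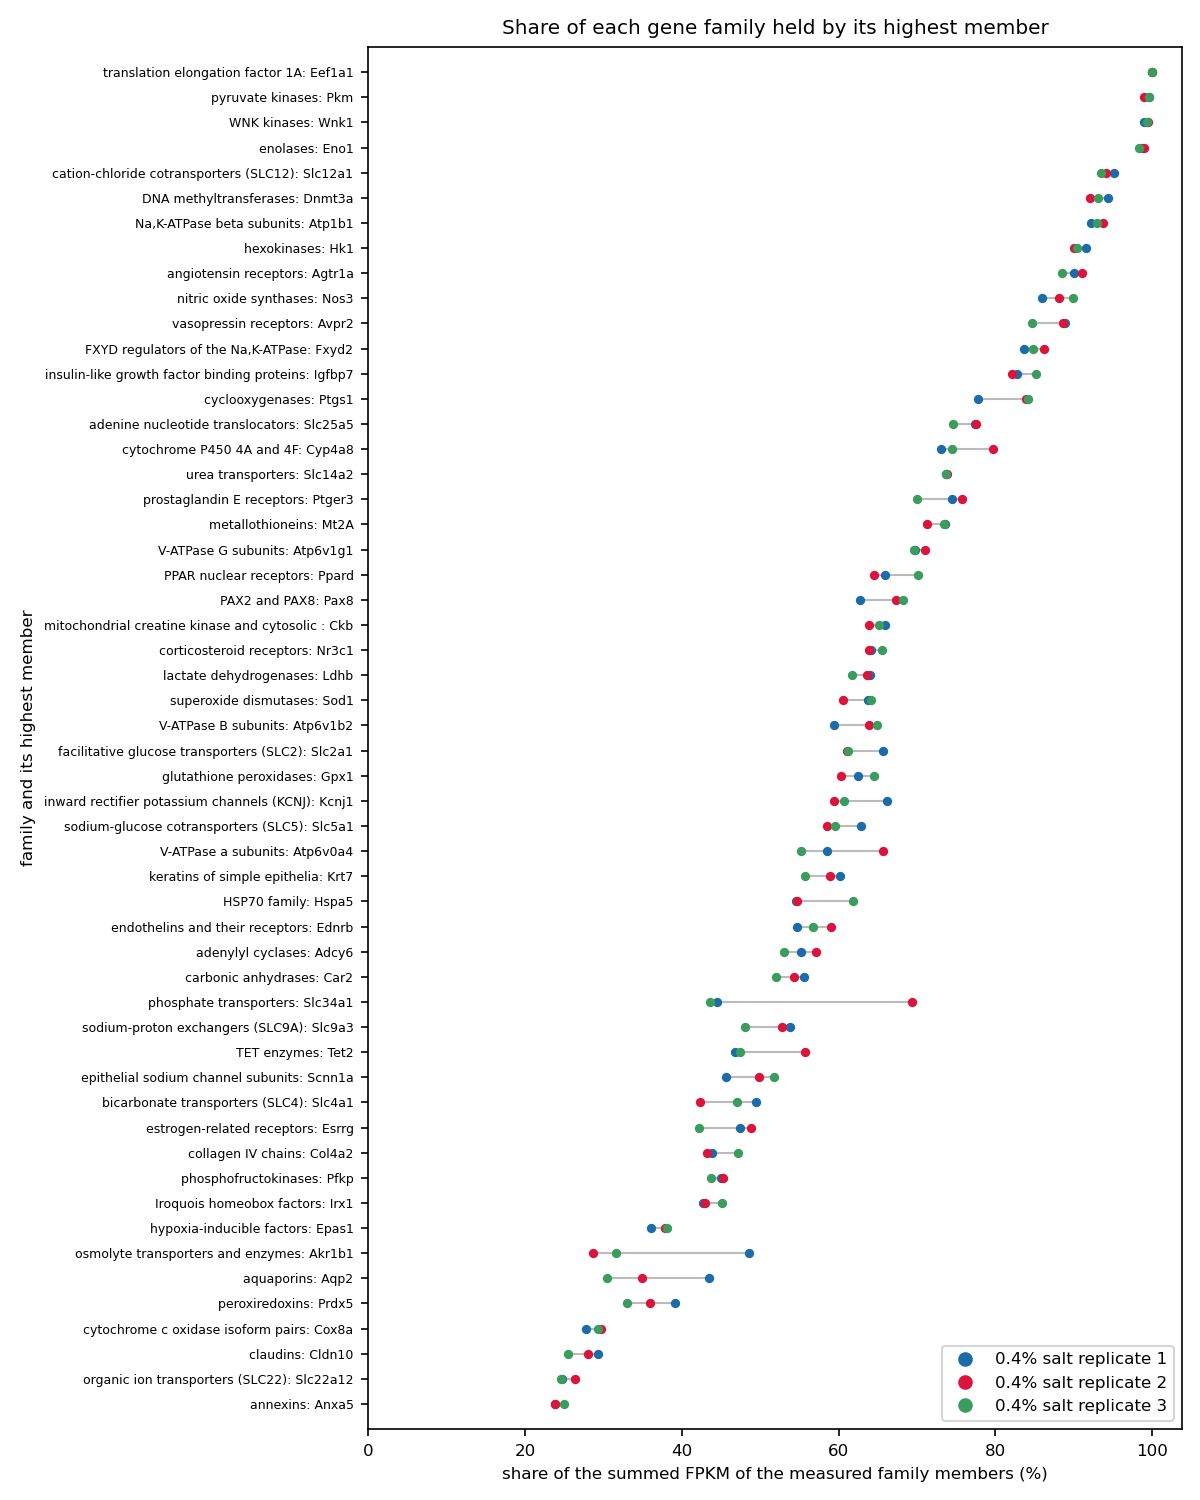
Share of the summed FPKM of the measured members held by the highest member of 54 of the gene families (6 are not drawn; horizontal axis, %), in each baseline library; the gene is named after its family. Most points of a family lie close together, and the widest spreads among those drawn are those of the phosphate transporters and the osmolyte genes.

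Energy metabolism showed both extremes. Hk1 (hexokinase 1) held 90.7% ± 0.799 of the hexokinases, Eno1 98.7% ± 0.279 of the enolases and Pkm 99.4% ± 0.354 of the pyruvate kinases. Ldhb, the lactate dehydrogenase subunit of oxidative tissues, held 63.1% ± 1.27 and Ldha, that of glycolytic tissues, 32.5% ± 1.67, a ratio of 1.99, 2.05 and 1.8. The 3 phosphofructokinases were more evenly split, with Pfkp at 44.7% ± 0.841, Pfkl at 28.7% ± 1.63 and Pfkm at 26.6% ± 0.798. Of the adenine nucleotide translocators, which exchange ADP and ATP across the inner mitochondrial membrane, Slc25a5 held 76.5% ± 1.63 and Slc25a4 23.5% ± 1.63, with the germ cell form Slc25a31 listed at 0. Ckb, the cytosolic brain-type creatine kinase, held 65% ± 1.02 and Ckmt1b, a mitochondrial form, 35% ± 1.02, and the muscle form Ckmt2 was listed at 0.

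The hormone and paracrine receptors had mostly 1 dominant member. Agtr1a, a type 1 angiotensin receptor, held 89.9% ± 1.31 and Agtr1b 10.1% ± 1.29 at 4.61, 3.87 and 5.06 FPKM. Ednrb, the endothelin B receptor, was at 44, 42.8 and 39.6 FPKM, held 56.8% ± 2.18 of the endothelin ligand and receptor sum and stood above Ednra (6.48, 5.65 and 7.32 FPKM); of the ligands Edn3 was at 27, 20.7 and 19.6 FPKM and Edn2 was listed at 0. Ptgs1, the constitutive cyclooxygenase, held 81.9% ± 3.62 against Ptgs2, the inducible form. Igfbp7 held 83.3% ± 1.64 of the insulin-like growth factor binding proteins and Igfbp5 11.6% ± 2.31.

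Transcription factors and chromatin enzymes were at moderate levels. Pax8 (63.8, 73 and 66.6 FPKM) stood above Pax2 (37.8, 35.5 and 31.1 FPKM), both regulators of renal epithelium, and Irx1 led the Iroquois factors at 29.4, 32.2 and 30.5 FPKM. Esrrg (35.7, 35.6 and 24.7 FPKM) and Esrra (27.4, 25 and 26.2 FPKM), estrogen-related receptors that act on mitochondrial genes, overlapped: Esrrg was higher in replicates 1 and 2 and Esrra in replicate 3. Of the hypoxia-inducible factors, Epas1 (HIF-2 alpha) was at 51.3, 51.2 and 52.9 FPKM and Hif1a at 46, 42.1 and 41.2, Epas1 being the higher in every rat. The genes aimed at in the treated groups were both present before treatment. Dnmt3a, a de novo DNA methyltransferase, was at 13.4, 12.2 and 12.9 FPKM and held 93.2% ± 1.14 of the measured DNA methyltransferases, Dnmt1 lying in a locus of several names that was left out. Tet3 was at 9.38, 8.47 and 9.64 FPKM and Tet2 at 9.21, 11.7 and 9.49; both are dioxygenases that oxidise 5-methylcytosine, their ranges overlapped, with Tet3 the higher in replicates 1 and 3 and Tet2 in replicate 2, and Tet1 was at 1.1, 0.814 and 0.886 FPKM.

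Defence against metals and oxidants was led by metallothioneins: Mt2A held 72.8% ± 1.31 and Mt1a 27.1% ± 1.33 of the 4 measured, and both were highest in replicate 3 (Mt1a 500.0, 646 and 700.0 FPKM). Gpx1 led the glutathione peroxidases at 347, 329 and 362 FPKM, with Gpx5 and Gpx6 listed at 0. Sod1, the cytosolic superoxide dismutase, was at 390.3, 518 and 374 FPKM and Sod3, the extracellular form, at 109, 227 and 109.6, both highest in replicate 2. Prdx5 led the peroxiredoxins at 466, 418 and 345 FPKM. The other members listed at 0 in all 3 libraries were Kcnj6, Cldn18, Cox8b, Ftmt, Hspa1b, Acta1, Actc1 and Cyp4f4.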

How the data were processed

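Total RNA of the outer medulla of individual rats was sequenced after library preparation on a NeoPrep System, per the labels' protocols. The authors deposited 1 table of FPKM values per locus; per the submitters' processing notes it was made with Trim Galore 0.2.5, Cufflinks 2.2.1 and the genome build rn5, while no aligner or annotation is named in the sources used here. FPKM keeps no read counts, so no count test was possible. Another column of per-sample values, 1 in all, repeats the header of a treated sample and was not used.

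Levels, shares, list scores and ratios were computed from the deposited FPKM with Python 3.11.15, pandas 2.3.3 and numpy 2.4.6. A locus was counted as expressed at a mean of at least 1 FPKM, and as 2-fold apart when its highest library was more than 2-fold its lowest after adding 1 FPKM. The count was tried on simulated data at levels of at least 10 FPKM only, with 1 small noise level set in advance. It therefore does not give the error of the count in these data. The ratio of scaling factors was the value with the most locus ratios within 2% of it. It used loci with a mean under 0.15 FPKM that were above 0 in both libraries (1072 and 1174 loci). Of these locus ratios, 86.8% and 86.2% lay within 2% of that value times a ratio of whole numbers up to 6. How large this share would be at other values was not computed. Where loci shared a symbol the highest was used. The spread is that between 3 rats, each measured once, so biological and technical parts cannot be told apart. Gene members and lists were chosen with earlier results of these data known, and motifs after matches were seen.

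Named genes were the 20 highest single-symbol nuclear genes, the mitochondrial genes, up to 5 members of each list, family members down to 5% of the family sum, those listed at 0, and the 20 most uneven (mean of at least 10 FPKM) and 10 most even (at least 100 FPKM) single-symbol genes, and the 10 highest loci without a name. Promoters are from RefSeq (GRCr8), not rn5. Alternatives covered scaling, filters, pseudocounts, duplicate loci and leaving out each rat. Some genes the rule would name are not reported here; the counts and sums of lists and families include them.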

Additional observations from a re-analysis of the deposited data

How the results depend on the processing

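No paired analysis was possible because the 3 libraries form 1 group and no test was made. The count of expressed loci stayed within 1.5 times of 14383 under every alternative tried, and the mitochondrial share within 1 SD. The count of loci 2-fold apart, 434, ran from 122 to 311 with 1 rat left out, was 271 at a minimum mean of 5 FPKM and 774 with a pseudocount of 0.1 FPKM. The median coefficient of variation, 8.29%, was 6.15% to 7.5% with 1 rat left out, 10.1% after rescaling to the same summed FPKM, and 6.89% and 9.30% at minimum means of 5 and 0.5 FPKM. The 100 highest loci held 25.2% without the mitochondrial loci, against 46.3%. The proximal tubule score spread was 0.50 to 1.45 log2 units with 1 rat left out, 0.50 being without replicate 2. The thick ascending limb median, 83.9 FPKM, was 297.6 as a mean over members and 115 after rescaling to the same summed FPKM. The median share of the leading paralog, 63.0%, was 62.5% to 63.7% with 1 rat left out; 59 of 60 families kept their leader without replicate 1 (the aquaporins did not) and 59 without replicate 2 (the TET enzymes did not).

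Rescaling each library to the same summed FPKM moved the median of replicate 3 over replicate 1 from -0.01 to 0.14 log2 units, so 59.5% of loci were then highest in replicate 3. Under it the thick ascending limb and intercalated lists were highest in replicate 2 and the endothelial and podocyte lists in replicate 3; the general proximal, S3, principal cell, fibroblast, pericyte and macrophage lists kept their highest library. Low genes are limited by an unknown read depth.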

Other observations

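Genes that rise in injured tubules, picked after their values were seen, were present in these operated rats. The rats had undergone the surgery but had received neither the salty diet of the other groups nor any oligonucleotide. The part played by the surgery in these levels was not tested. Lcn2 (lipocalin 2) was at 113, 140.1 and 186 FPKM, Havcr1 (KIM-1) at 26.1, 33.5 and 45, Clu (clusterin) at 626, 822 and 919, Vcam1 at 46.5, 47.5 and 60.5, Timp1 (a protease inhibitor) at 66.2, 71.3 and 113 and Mgp (matrix Gla protein) at 1229.6, 1391 and 1916. With Spp1, all 7 were highest in replicate 3 and lowest in replicate 1, but as they were picked by eye nothing is read from that count. Among expressed loci 31.7% were highest in replicate 3 and 31.2% lowest in replicate 1. Matrix and stromal genes picked in the same way also had their highest value in replicate 3: Eln (elastin) was at 38.7, 33.3 and 73.5 FPKM, Cthrc1 at 8.85, 11.8 and 20.2, Mdk (midkine) at 15, 12.2 and 26, Stab1 at 11.7, 11.5 and 21.9, Fgf7 at 28.2, 19.7 and 34.8 and Sparc at 967, 825 and 1217.

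Of 5 immediate early genes, which respond quickly to many stimuli and were picked with their values known, Nr4a1, Fos and Egr1 were highest in replicate 1, at 21.1, 7.99 and 6.99 FPKM, 28.7, 22.2 and 18.1 FPKM and 49.4, 42.4 and 31 FPKM. Jun, at 45.6, 49.96 and 38 FPKM, and Junb, at 52.7, 56.8 and 56.2 FPKM, were highest in replicate 2. Of the genes commonly used as references, Gapdh was at 923, 926 and 950.3 FPKM and Ppia at 999, 914 and 901 FPKM; both have many pseudogenes.

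Some loci joined from several genes also differed widely between the rats. A locus with Cdk9 and an Ensembl entry (chromosome 3, 17081161 to 17086045, rn5) was at 40.6, 759 and 41.9 FPKM, and a locus with Ddx5 and 2 Ensembl entries (chromosome 10, 94725451 to 94762044, rn5) at 2388, 326 and 262 FPKM. Joined loci that hold transporter genes followed replicate 2, with Grap and Slc5a10 at 18.3, 54.3 and 24.5 FPKM and the locus with Slc7a12 at 171, 362 and 138 FPKM. They were named after their values were seen.

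The 10 highest loci without a gene name had means from 500.4 to 1756 FPKM. The highest (chromosome 5, 150196766 to 150196904, rn5) is 139 bases wide and was at 1916, 1572 and 1779 FPKM. Of the rest, 8 are 95 to 197 bases wide and 1 spans 8129 bases (chromosome 10, 40019565 to 40027693), where the values were 306, 694 and 501 FPKM. The locus at chromosome 18, 48144908 to 48145002, was the most uneven of the 10 at 1045, 677 and 242 FPKM. FPKM of loci this short depends strongly on how the effective length was set, so these levels are not compared with those of genes.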
